A study of Rattus norvegicus with 4 samples.

Results

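The miRNAs described here are the products of 2 rat hairpins, rno-mir-199a and rno-mir-214, in small RNA of exosomes, which are small vesicles shed by cells. They were chosen by name. Every read sequence (tag) assigned to either hairpin was taken from the deposited tag files, and its counts were summed per arm, length and library. The 2 hairpins gave 3 mature forms with a count, miR-199a-5p, miR-199a-3p and miR-214-3p, of 348 named forms from 262 named hairpins. The series compared exosomes of adipose tissue explants (Exo-AT) with exosomes of adipose stem cells (Exo-ADSCs), with 2 libraries in each group. Exo-AT came from minced adipose tissue of SD (Sprague-Dawley) rats aged 4 weeks, stirred at 100 rpm in 75 mL of α-MEM for 3 days. Exo-ADSCs came from cells at passage 3, kept for 3 days in serum-free α-MEM. Both media held penicillin and streptomycin, and no genotype or further agent is given for either group. Whether replicates stem from different animals or cultures is not in the labels, so the spread behind each p-value may be technical. An explant also holds cells other than stem cells, and vesicles of all of them enter Exo-AT.

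Tag counts were used for Exo-AT replicates 1 and 2 and for Exo-ADSCs replicate 2. Exo-ADSCs replicate 1 entered only through a deposited table of 45 miRNAs, so Exo-ADSCs values from tags rest on 1 library and have no SD. Named miRNAs took 9134 and 136024 counts in the Exo-AT libraries, against 97204 counts in the Exo-ADSCs library, and 60.1% and 75.1% of the assigned counts in Exo-AT, against 13.6% in Exo-ADSCs. The remaining assigned counts lay on hairpins that the authors predicted. Levels are in CPM, counts scaled to a library of 1e6 named counts. Where no count was seen, up to 3 counts remain possible, or 328 and 22.1 CPM in Exo-AT, against 30.9 CPM in Exo-ADSCs. Inside the 2 Exo-AT files the sample name is identical. The counts of these libraries nevertheless differed beyond sampling noise (chi-square 1494 over 79 named forms, p = 9.97e-261, a test of reads and not of groups).

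miR-199a and miR-214 are known from the mesenchyme. In mouse they are processed from a shared noncoding transcript that runs antisense to the dynamin 3 gene, and that transcript is switched on by the transcription factor Twist1 during development. Each hairpin can yield a 5p and a 3p miRNA, and the target choice of a miRNA rests mainly on its seed, bases 2 to 8. In adipose and other stromal tissue both miRNAs are mostly studied in fibroblasts and in cells that form bone, fat or muscle.

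The mature sequences are shown first, because the forms differ in seed and the comparison turns on which of them each exosome source carried. They are RefSeq sequences of the GRCr8 assembly on chromosome 13, plus strand, with the seed in capitals:
miR-199a-5p: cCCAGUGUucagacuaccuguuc
miR-199a-3p: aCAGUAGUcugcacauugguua
miR-214-5p: aGAGUUGUcaugugucu
miR-214-3p: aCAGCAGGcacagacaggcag
The gene of the first pair is Mir199a2 in RefSeq, with miR-199a-5p at chr13:77116255-77116277 and miR-199a-3p at chr13:77116294-77116315. miR-214-5p lies at chr13:77121656-77121672 and miR-214-3p at chr13:77121713-77121733, so 5340 bases separate miR-199a-3p from miR-214-5p. Both miRNA genes lie within the span of Dnm3, which codes for the GTPase dynamin 3. Whether the span is exonic or intronic at these positions was not examined. No seed was shared by any pair of the 4 sequences. miR-199a-3p and miR-214-3p start alike, and their seeds differ by T5C and T8G, with positions counted from the 5′ end of the mature sequence and the miR-199a-3p base first.

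Of the cluster's forms, miR-214-3p fell in Exo-AT, to 87.1 ± 11.4 CPM (SD, n = 2, TMM-scaled) against 1558 CPM in Exo-ADSCs. miR-199a-5p and miR-199a-3p did not pass the test, and the difference between the fold changes of the forms was not itself tested. Of the 183 named forms tested with edgeR's quasi-likelihood test and Benjamini-Hochberg adjustment, 70 were called in either direction, which is 38.3% of them. Lower in Exo-AT were 35 forms, or 19.1%, and higher in Exo-AT were also 35, or 19.1%. Of the cluster's 3 tested forms, 1 was called lower and 0 higher, and with so few members this share cannot be set apart from the background. The split of all calls moved with the scaling. It was 23 higher and 30 lower with DESeq2-type size factors, 46 higher and 19 lower with total named counts, and 107 higher and 5 lower of 169 with all assigned counts. The fit has 1 Exo-ADSCs library, which is assumed to vary like the 2 Exo-AT libraries.

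miR-199a-5p, the 5p product of the miR-199a hairpin, is known for a target set that includes hypoxia-related genes. It had 22 and 273 counts in Exo-AT, against 63 counts in Exo-ADSCs. These include 3 and 15 counts in Exo-AT, against 6 counts in Exo-ADSCs, of a 15 nt tag that lies on the 5p side of the hairpin but outside the mature arm. After TMM scaling its level was 1739 and 1857 CPM in Exo-AT, against 982 CPM in Exo-ADSCs. Both Exo-AT libraries were above the Exo-ADSCs library. With 2 libraries against 1, such an order is common without any difference. The log2 fold change of miR-199a-5p was 0.88 (SE 0.54, adjusted p = 0.206, edgeR with Benjamini-Hochberg adjustment), short of the 0.05 threshold. Scaling by total named counts gave miR-199a-5p 1.74 on the log2 scale and a call (adjusted p = 0.00880, edgeR with Benjamini-Hochberg adjustment), while the median of all tested forms moved to 1.21, against 0.37 with TMM. Set against the median of all forms, miR-199a-5p stood at +0.50 on the log2 scale with TMM and +0.53 with total named counts. With all assigned counts it stood at +0.19. It lay below the median only with tags without mismatch or indel, at -0.17.

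miR-199a-3p, the product of the other arm, had the most counts of the cluster's forms in all 3 libraries. It had 32 and 363 counts in Exo-AT, against 215 counts in Exo-ADSCs. In Exo-AT replicate 1 its lead over miR-199a-5p was not resolved. In each library most of its counts came from tags shared with predicted hairpins, as given below. The TMM-scaled level of miR-199a-3p was 2529 and 2469 CPM in Exo-AT, against 3351 CPM in Exo-ADSCs. Here both Exo-AT libraries were below the Exo-ADSCs library. The log2 fold change of miR-199a-3p was -0.43 (SE 0.41, adjusted p = 0.412, edgeR with Benjamini-Hochberg adjustment). Its sign depended on the scaling: it was 0.45 with total named counts, not a call, and 2.77 with all assigned counts, where it was called higher (adjusted p = 1.89e-08, edgeR with Benjamini-Hochberg adjustment). Relative to the median of all forms miR-199a-3p was at -0.80 on the log2 scale with TMM, at -0.76 with total named counts and at -1.11 with all assigned counts.

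miR-214-3p, known in mouse and human from fibroblasts, muscle and bone, had 1 and 14 counts in Exo-AT, against 100 counts in Exo-ADSCs. Its TMM-scaled level was 79.0 and 95.2 CPM in Exo-AT, against 1558 CPM in Exo-ADSCs. Both Exo-AT libraries lay far below the Exo-ADSCs library, and in Exo-AT replicate 1 the value rests on a single count. The log2 fold change of miR-214-3p was -4.06 (SE 0.83, adjusted p = 1.49e-05, edgeR with Benjamini-Hochberg adjustment), the 19th lowest log2 fold change of 183. The call was lost with all assigned counts as the scale (log2 fold change of miR-214-3p -0.89, adjusted p = 0.456, edgeR) and with limma on log2(CPM + 1) (-4.15, adjusted p = 0.0550). Set against the median of all forms, miR-214-3p was at -4.43 on the log2 scale with TMM and -4.77 with all assigned counts. miR-214-5p, its partner arm, had 0 counts in all 3 libraries. In these bulk vesicle preparations, vesicles from fewer cells of a type and less of a miRNA per vesicle cannot be told apart.

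**Figure D1:**
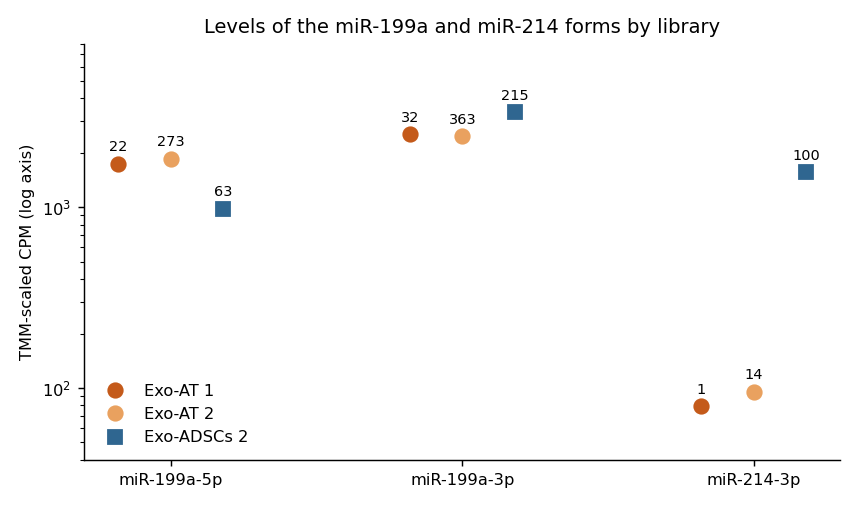
TMM-scaled CPM (log axis) of the 3 forms in Exo-AT replicate 1, Exo-AT replicate 2 and Exo-ADSCs replicate 2, 1 point per library, with the tag count printed above each point. miR-199a-5p and miR-199a-3p sit within 982 to 3351 CPM in every library, while miR-214-3p is at 79.0 and 95.2 CPM in Exo-AT and at 1558 CPM in Exo-ADSCs.

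The order of the 3 levels therefore differed between the sources. In Exo-AT the order from high to low was miR-199a-3p at 2499 ± 42.6 CPM, miR-199a-5p at 1798 ± 83.5 CPM and miR-214-3p at 87.1 ± 11.4 CPM (TMM-scaled, SD, n = 2 each). In Exo-AT replicate 1 the order of miR-199a-3p and miR-199a-5p was not resolved, with 32 and 22 counts. The interval of the 5p share there, 28.7 to 54.0%, includes an even split. A single count in that library was 79.0 CPM, so these SDs do not show the counting error. In Exo-ADSCs the order was miR-199a-3p, miR-214-3p and miR-199a-5p, from a single library with no spread. Among all named forms miR-199a-3p ranked 29th and 31st by count in Exo-AT, against 23rd in Exo-ADSCs. miR-199a-5p ranked 37th and 41st in Exo-AT and 53rd in Exo-ADSCs. The rank of miR-214-3p was 137th and 149th in Exo-AT, against 43rd in Exo-ADSCs.

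Shares within the cluster do not depend on the scaling of a library. miR-214 took 1.82% of the counts of both hairpins in replicate 1 of Exo-AT (95% Wilson interval 0.322 to 9.61) and 2.15% in its replicate 2 (1.29 to 3.58), against 26.5% in Exo-ADSCs replicate 2 (22.3 to 31.1). The highest bound in Exo-AT was thus below the lowest bound in Exo-ADSCs. With the reads of tags shared with predicted hairpins left undivided, miR-214 took 4.71% (1.85 to 11.5) and 2.87% (1.98 to 4.14) in Exo-AT, against 18.4% (15.4 to 21.9) in Exo-ADSCs. The 5p arm took 40.7% of miR-199a counts in replicate 1 of Exo-AT (28.7 to 54.0) and 42.9% in its replicate 2 (39.1 to 46.8), against 22.7% in Exo-ADSCs replicate 2 (18.1 to 27.9). Both Exo-AT shares were higher, and the intervals for counting error did not overlap. With the arm taken from the RefSeq mature sequence the share was 37.3% (25.3 to 51.0) and 41.5% (37.7 to 45.5) in Exo-AT, against 57 of 272 counts (16.5 to 26.2%) in Exo-ADSCs, and the interval of replicate 1 then overlapped that of Exo-ADSCs. The intervals cover counting error only, since the reads carry no molecular identifiers, and 1 library in Exo-ADSCs allows no test between groups. Such shares of other hairpins were not examined, so neither the miR-214 share nor the 5p share can be called particular to the cluster. The hairpins together took 0.602% and 0.478% of named counts in Exo-AT, against 0.389% in Exo-ADSCs.

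The molecules behind the miR-214-3p counts also differed. The tags that show this are printed with T for U as sequenced and with bases 2 to 8 of each tag in capitals, so that a shifted start can be read from the shifted capitals:
miR-214-3p, RefSeq start and end: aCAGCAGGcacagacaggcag
miR-214-3p, 1 base earlier start: tACAGCAGgcacagacaggcag
miR-214-3p, earlier start and 1 base longer: tACAGCAGgcacagacaggcagt
miR-214-3p, earlier start and 2 bases shorter: tACAGCAGgcacagacaggc
miR-214-3p, 4 bases shorter: aCAGCAGGcacagacag
The tag with the RefSeq start and end had 0 and 0 counts in Exo-AT, against 51 counts in Exo-ADSCs. Taken against a floor of 3 counts over the Exo-AT group, it was lower in Exo-AT by at least 25.4-fold, per named count. That bound pools both Exo-AT libraries, holds for scaling by named counts only and leaves out the counting error of the 51 counts. In Exo-AT replicate 1 alone the floor was 328 CPM, against 525 CPM for this tag in Exo-ADSCs. The bound also takes no account of tags with fewer than 2 reads, which were not recorded. The tag with the earlier start and the RefSeq end had 0 and 0 counts in Exo-AT, against 16 in Exo-ADSCs, and the longer tag had 0 and 0 against 10. Summed over all tags that reach within 1 base of the mature end, Exo-AT had 0 and 0 counts, against 100 counts in Exo-ADSCs. These 0 counts depend on where the cut is set. With ends at most 2 bases short, Exo-AT had 0 and 8 counts, against 100 in Exo-ADSCs. The Exo-AT counts lay on the 2 short tags instead. The tag ending 2 bases short had 0 and 8 counts in Exo-AT, against 0 in Exo-ADSCs, and the tag ending 4 bases short had 1 and 6 counts, against 0. No recorded miR-214-3p tag was found in both sources, where Exo-AT had 1 and 14 counts of the form in all.

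The 4-base-shorter tag of 17 nt was not specific to miR-214. In the deposited assignment its reads were divided with hairpins that the authors predicted on chromosome 5 and, in Exo-AT replicate 1, also on chromosome 1. Counts from such shared tags made up 1 of 1 and 6 of 14 miR-214-3p counts in Exo-AT (42.9% in replicate 2), against 0 of 100 in Exo-ADSCs, which allows up to 3.0%. The reads of the other miR-214-3p tags were not divided. All tags of the form had the alignment status R, as the shared miR-199a-3p tags did, and whether they align elsewhere was not examined. With undivided reads miR-214-3p had 4 and 27 reads in Exo-AT, against 100 in Exo-ADSCs. Its log2 fold change was then -2.79 (SE 0.81, adjusted p = 0.00327, edgeR with Benjamini-Hochberg adjustment), a smaller fall but still a call. Counting tags of 20 to 25 nt only, it was -5.86 (SE 0.94, adjusted p = 0.00508, edgeR with Benjamini-Hochberg adjustment).

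Length distributions differed between the forms, and the sources differed at some lengths only. miR-214-3p tags averaged 17 and 18.7 nt in Exo-AT, against 21.6 nt in Exo-ADSCs. Tags of 21 to 23 nt held 0 of 1 and 0 of 14 miR-214-3p counts in Exo-AT, against 94.0% in Exo-ADSCs (87.5 to 97.2). All named miRNAs went the other way: 71.5% and 75.8% of their counts were 21 to 23 nt in Exo-AT, against 24.8% in Exo-ADSCs. miR-214-3p in Exo-ADSCs was therefore long within a library of mostly shorter tags.

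miR-199a-3p kept a similar share of tags of 21 to 23 nt, with 62.5% and 71.6% in Exo-AT, against 63.3% in Exo-ADSCs. It had no tag of 15 to 17 nt in Exo-AT, in 0 of 32 and 0 of 363 counts, which allows up to 9.38% and 0.826%, against 25.1% in Exo-ADSCs (19.8 to 31.3). miR-199a-3p tags of 15 to 17 nt were thus seen only in the Exo-ADSCs library. Over all named miRNAs this length held 7.78% and 5.73% of counts in Exo-AT, against 16.0% in Exo-ADSCs. miR-199a-5p had 45.5% and 60.1% of its counts at 21 to 23 nt in Exo-AT, against 34.9% in Exo-ADSCs. At 15 to 17 nt it had 54.5% (34.7 to 73.1) and 22.3% (17.8 to 27.6) in Exo-AT, against 65.1% in Exo-ADSCs (52.8 to 75.7). Without the tag outside the mature arm, all of these short tags ended 5 or more bases short, and they made up 47.4% and 17.8% in Exo-AT, against 61.4% in Exo-ADSCs. The 2 Exo-AT libraries differed from each other here, and replicate 1, with 22 counts, overlapped the Exo-ADSCs interval.

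**Figure D2:**
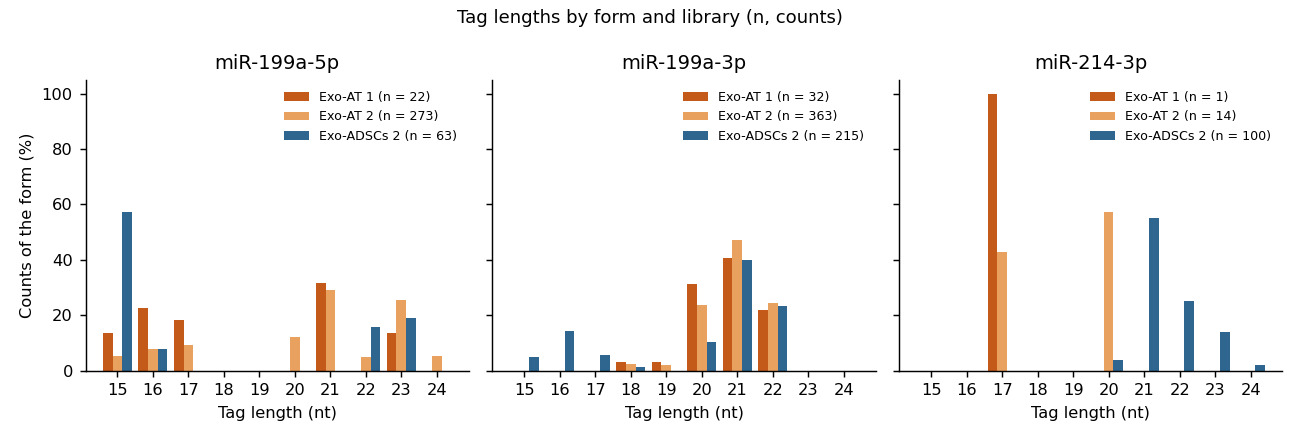
Percent of each form's counts at each tag length (nt) in Exo-AT replicate 1, Exo-AT replicate 2 and Exo-ADSCs replicate 2, with the counts behind each library in the legend. miR-214-3p tags of 21 to 23 nt are 94.0% of its counts in Exo-ADSCs and absent from Exo-AT, where it has 1 and 14 counts.

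The tags of miR-199a-3p are printed because its main molecule was the same in both sources while its short tags were not (bases 2 to 8 in capitals):
miR-199a-3p, 1 base shorter: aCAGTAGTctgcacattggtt
miR-199a-3p, RefSeq start and end: aCAGTAGTctgcacattggtta
miR-199a-3p, 2 bases shorter: aCAGTAGTctgcacattggt
miR-199a-3p, 1 base later start: cAGTAGTCtgcacattggtt
miR-199a-3p, 6 bases shorter: aCAGTAGTctgcacat
The tag ending 1 base short led in all 3 libraries, with 13 and 146 counts in Exo-AT, against 76 counts in Exo-ADSCs. It made up 40.6% and 40.2% of the form in Exo-AT, against 35.3% in Exo-ADSCs. The RefSeq tag had 3 and 61 counts in Exo-AT, against 33 in Exo-ADSCs. The tag ending 2 bases short had 5 and 46 counts in Exo-AT, against 1 in Exo-ADSCs, and the tag of 16 nt had 0 and 0 counts, against 28. Ends 5 or more bases short made up 0% of miR-199a-3p in both Exo-AT libraries and 26.5% in Exo-ADSCs (21.1 to 32.8).

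The start of miR-199a-3p varied more than that of miR-199a-5p, and a moved start changes the seed. In 34.4% and 26.7% of miR-199a-3p counts in Exo-AT, against 27.9% in Exo-ADSCs, the start was other than that of RefSeq. A start 1 base later held 18.8% and 17.6% of miR-199a-3p in Exo-AT, against 13.5% in Exo-ADSCs, and a start 1 base earlier held 12.5% and 7.99%, against 14.4%. These shares had overlapping intervals in all 3 libraries. Among counts within the mature arm, without the 15 nt tag outside it, miR-199a-5p kept its RefSeq start in 19 of 19 and 241 of 258 in Exo-AT (93.4% in replicate 2), against 57 of 57 in Exo-ADSCs. The start of miR-214-3p lay 1 base earlier in 0 of 1 and 8 of 14 counts in Exo-AT (57.1% in replicate 2), against 34 of 100 counts in Exo-ADSCs (interval 25.5 to 43.7%).

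For miR-199a-5p the sources differed at the 3′ end, as 5 of its common tags without a mismatch show (bases 2 to 8 in capitals):
miR-199a-5p, 2 bases shorter: cCCAGTGTtcagactacctgt
miR-199a-5p, RefSeq start and end: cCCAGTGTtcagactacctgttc
miR-199a-5p, 6 bases shorter: cCCAGTGTtcagactac
miR-199a-5p, 7 bases shorter: cCCAGTGTtcagacta
miR-199a-5p, 8 bases shorter: cCCAGTGTtcagact
The tag ending 2 bases short had 5 and 68 counts in Exo-AT, 22.7% and 24.9% of the form, against 0 of 63 counts in Exo-ADSCs, which allows up to 4.76%. The RefSeq tag had 3 and 48 counts in Exo-AT, against 12 counts in Exo-ADSCs. Both sources also held shorter tags of the arm. The tags ending 6 and 7 bases short had 4 and 22 counts and 5 and 19 counts in Exo-AT, against 0 and 0 counts in Exo-ADSCs. The tag ending 8 bases short had 0 and 0 counts in Exo-AT, against 30 counts in Exo-ADSCs, where it led the form. A tag ending 7 bases short was also found in Exo-ADSCs, with 5 counts and a changed last base. A tag ending 1 base short had 0 and 14 counts in Exo-AT, against 10 in Exo-ADSCs.

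**Figure D3:**
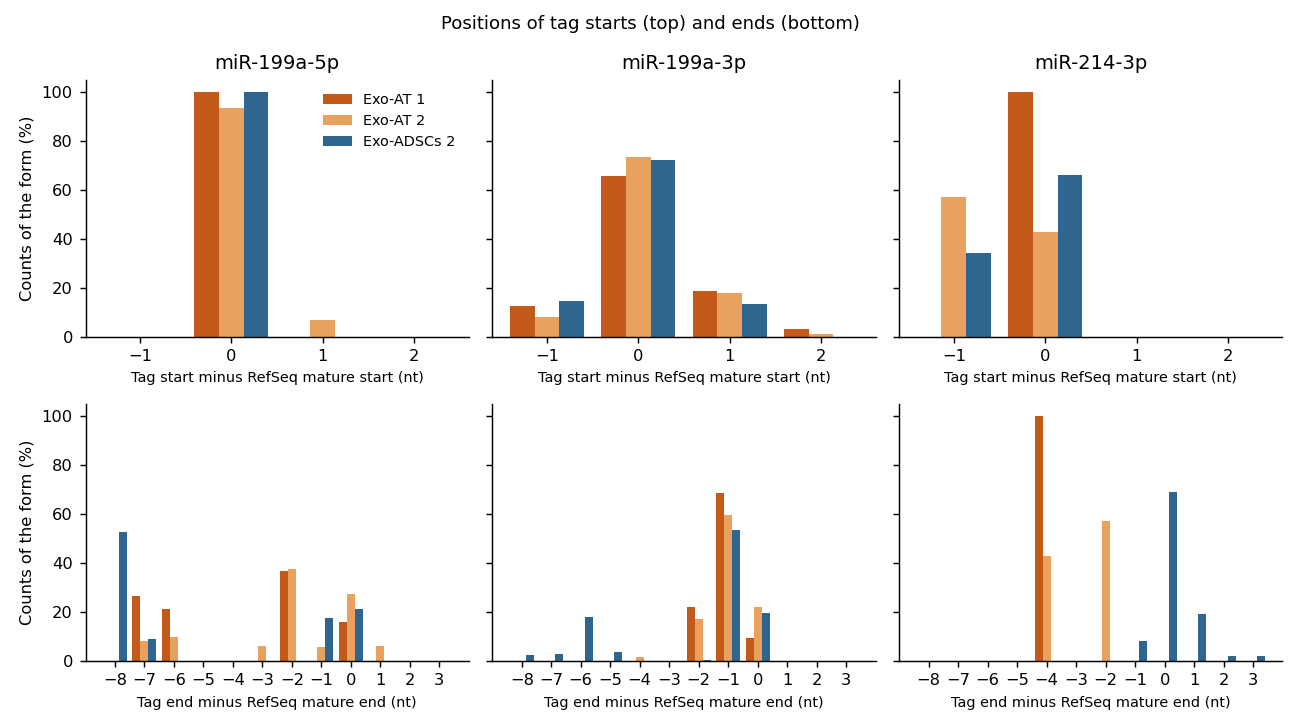
Percent of each form's counts by the distance (nt) of the tag's start (top) and end (bottom) from the RefSeq mature start and end, in Exo-AT replicate 1, Exo-AT replicate 2 and Exo-ADSCs replicate 2, without the miR-199a-5p tag outside the mature arm. Starts of miR-199a-3p are alike in the 3 libraries, whereas ends of miR-199a-5p lie most often 2 bases short in Exo-AT and 8 bases short in Exo-ADSCs, and all ends of miR-214-3p in Exo-AT lie 2 or 4 bases short.

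Changed bases at the tag ends were found in both sources. Substitutions at the first base, C1A or T1A with the hairpin's base first and positions counted from the tag's 5′ end, were found in 4 of 54 and 49 of 636 miR-199a counts in Exo-AT, or 7.41% and 7.70%, against 0 of 278 counts in Exo-ADSCs, which allows up to 1.08%. By arm they made up 9.09% and 10.3% of miR-199a-5p and 6.25% and 5.79% of miR-199a-3p in Exo-AT. Over all named miRNAs the share of counts with a first base changed to A was 0.821% and 1.14% in Exo-AT, against 0.140% in Exo-ADSCs. A changed last base was found in 0 of 22 and 28 of 273 miR-199a-5p counts in Exo-AT (10.3% in replicate 2, 7.19 to 14.4), against 5 of 63 in Exo-ADSCs (7.94%, 3.44 to 17.3), with overlapping intervals. The 28 counts in Exo-AT were C23T or A24T, counted in the same way, neither of which was seen in Exo-AT replicate 1 or in Exo-ADSCs. For miR-199a-3p the last base was changed in 0 of 32 and 0 of 363 counts in Exo-AT, against 3 of 215 in Exo-ADSCs, and for miR-214-3p in 0 of 1 and 0 of 14, against 4 of 100.

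The overlap of distinct molecules was as follows, in libraries of unequal depth. The cluster had 15 and 38 distinct tags in Exo-AT, against 33 in Exo-ADSCs, and 62 over all 3 libraries. All 15 tags of Exo-AT replicate 1 were found in replicate 2, which is 39.5% of the tags and 78.8% of the counts there. Exo-AT replicate 2 shared 9 tags with Exo-ADSCs, which is 23.7% of its own 38 tags and 27.3% of the 33. These 9 tags held 60.3% of its cluster counts and 46.8% of those in Exo-ADSCs. Exo-AT replicate 1 shared 7 tags with Exo-ADSCs, 46.7% of its own tags and 21.2% of theirs. All named miRNAs had 610 and 2254 distinct tags in Exo-AT, against 1663 in Exo-ADSCs. Their overlap was not examined, so these shares cannot be called particular to the cluster.

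miR-199a-3p could not be assigned to the miR-199a hairpin alone. A hairpin of 60 nt that the authors predicted on chromosome 3 holds the first 21 bases of miR-199a-3p, and its start differs from miR-199a-5p by C10T, counted from the 5′ end of miR-199a-5p with the miR-199a base first. The 2 starts are printed because that base, in capitals, is what tells their 5p tags apart:
miR-199a-5p: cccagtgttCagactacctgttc
Predicted hairpin, start: cccagtgttTagactacctgttc
Counts from tags shared with predicted hairpins made up 90.6% and 78.2% of miR-199a-3p counts in Exo-AT, against 80.5% in Exo-ADSCs. With undivided reads miR-199a-3p had 59 and 641 reads in Exo-AT, against 380 in Exo-ADSCs, and its log2 fold change was -0.39 (SE 0.35, adjusted p = 0.412, edgeR with Benjamini-Hochberg adjustment). No miR-199a-5p count came from a shared tag in any library. The 5p share of miR-199a was 27.2% and 29.9% in Exo-AT, against 14.2% in Exo-ADSCs, when the shared 3p reads were all given to miR-199a. The Exo-AT shares were higher under both ways of counting.

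The Mir3120 hairpin lies on the strand opposite to miR-214 and overlaps its hairpin by 106 bases, so its tags would read the other way. rno-mir-3120 had 0 and 0 counts in Exo-AT, against 15 counts in Exo-ADSCs. All 15 came from 1 tag of 15 nt with a mismatch, which leaves its source uncertain.

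In the authors' deposited table of miRNAs raised in Exo-AT, miR-199a-5p was the only form of the cluster among the 45 entries. The authors' deposited table gives it 1404 and 187 normalized reads in Exo-AT, against 218 and 80 in Exo-ADSCs. The groups overlap, because Exo-AT replicate 2 was below Exo-ADSCs replicate 1. The table was chosen by the authors on these samples, so its direction is no independent evidence, and no test was made on it. In the authors' deposited table Exo-AT replicate 1 was 7.51 times replicate 2, whereas in CPM of named counts from the tags the ratio was 1.20. The miR-199a-5p value in the authors' deposited table was 63.8 and 0.685 normalized reads per tag count in Exo-AT, against 1.27 in Exo-ADSCs replicate 2. The median over the miRNAs that could be matched was 63.8 and 2.23 in Exo-AT, against 1.38 in Exo-ADSCs replicate 2, again from the authors' deposited table. The factor behind the normalized reads is not given in the sources used here.

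**Figure D4:**
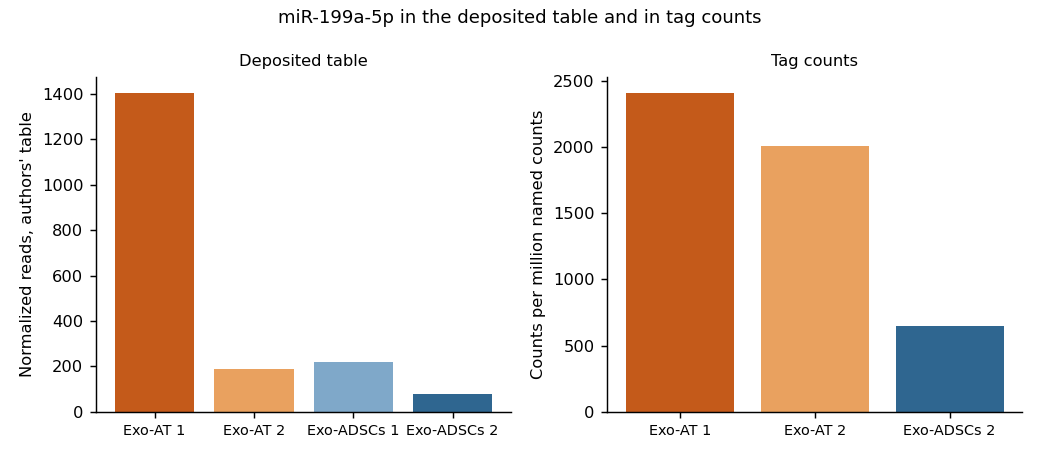
miR-199a-5p in the authors' deposited table (left, normalized reads, 4 libraries) and in tag counts (right, CPM of named counts, 3 libraries), 1 bar per library with Exo-AT first. Exo-AT replicate 1 reads 1404 in the table against 187 in replicate 2, while by tags the 2 libraries differ by a ratio of 1.20.

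Other miRNAs known from mesenchymal stromal cells were read beside the cluster, from a list of 21 hairpins that gave 24 tested forms. Of these, 2 were higher in Exo-AT, 8 were lower and 14 did not pass edgeR's test with Benjamini-Hochberg adjustment, where 19.1% of all tested forms were higher and 19.1% lower. With total named counts 2 of the list were higher and 5 lower, where 46 and 19 of all 183 tested forms were. With tags of 20 to 25 nt only, 2 of 21 were higher and 8 lower, where 30 and 29 of all 130 were. The median log2 fold change of the list with TMM was -0.75, against 0.37 over all 183 tested forms. miR-10b-5p, a Hox-cluster miRNA and the most abundant of the list, averaged 215340 ± 52017 CPM in Exo-AT (SD, n = 2) and 199010 CPM in Exo-ADSCs and was not called. miR-143-3p, known from smooth muscle and stroma, fell to 129367 ± 14234 CPM in Exo-AT, against 235991 CPM in Exo-ADSCs (log2 fold change -0.87, SE 0.24, adjusted p = 0.00141, edgeR), but its log2 fold change was 0.04 with total named counts. miR-100-5p fell to 17827 ± 499 CPM in Exo-AT, against 155670 CPM in Exo-ADSCs, a log2 fold change of -3.13, which was 0.35 with tags of 20 to 25 nt only. miR-21-5p, a miRNA raised in fibrosis, fell to 22666 ± 1146 CPM in Exo-AT, against 44306 CPM in Exo-ADSCs, a log2 fold change of -0.97, which was -0.07 with total named counts. With tags of 20 to 25 nt only, miR-143-3p was at -1.75 (adjusted p = 0.0102) and miR-21-5p at -1.98 (adjusted p = 0.00508), both still lower, and miR-10b-5p was called higher at 1.70 (adjusted p = 0.0242), all by edgeR with Benjamini-Hochberg adjustment.

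Marker miRNAs of other cell types also differed between the libraries. The 5 mesenchymal stromal markers, the cluster included, summed to 144965 and 125166 CPM (TMM-scaled) in Exo-AT, against 248520 CPM in Exo-ADSCs, with mir-145 at 0 in Exo-AT replicate 1. Most of each sum was miR-143-3p, at 139432 and 119303 CPM in Exo-AT, against 235991 CPM in Exo-ADSCs. Its log2 fold change was 0.04 with total named counts, so the direction of the sum depends on the scaling. The endothelial marker mir-126a was at 2767 and 4721 CPM in Exo-AT, against 499 CPM in Exo-ADSCs. The 3 erythroid markers summed to 36834 and 154497 CPM in Exo-AT, against 50789 CPM in Exo-ADSCs, so the groups overlapped, and mir-144 was at 0 in Exo-AT replicate 1. The 7 epithelial markers summed to 1660 and 1258 CPM in Exo-AT, against 3616 CPM in Exo-ADSCs, with 4, 6 and 5 of the 7 detected in these libraries in that order. Most of the Exo-ADSCs sum was miR-203a-3p, at 237 and 190 CPM in Exo-AT, against 2977 CPM in Exo-ADSCs. The other epithelial markers together were not lower in Exo-AT. The 3 leukocyte markers summed to 316 and 871 CPM in Exo-AT (4 and 128 counts), against 234 CPM in Exo-ADSCs (15 counts). In Exo-ADSCs mir-150 and mir-223 were at 0, as was mir-223 in Exo-AT replicate 1. The 2 neural markers summed to 3320 and 592 CPM in Exo-AT, against 203 CPM in Exo-ADSCs. The liver marker mir-122 was at 474 and 429 CPM in Exo-AT (6 and 63 counts), against 343 CPM in Exo-ADSCs (22 counts). The 4 muscle markers were at 0 and 156 CPM in Exo-AT (0 and 23 counts), against 265 CPM in Exo-ADSCs (17 counts). Of these, mir-1 and mir-133b were at 0 in all 3 libraries. The muscle value of 0 in Exo-AT replicate 1 allows up to 328 CPM of named counts. The part of these markers in the fall of miR-214-3p was not tested.

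Each form had different nearest neighbours in level pattern. Likeness was the distance between log2(CPM + 1) values centred per form over the 3 libraries, among 113 other forms with at least 50 counts, so a small distance rests on 3 points only. The forms nearest to miR-199a-5p were miR-181a-5p (distance 0.0537), miR-375-3p (0.164) and miR-93-5p (0.236). The forms nearest to miR-199a-3p were miR-10a-5p (0.191), miR-27a-3p (0.217) and let-7i-5p (0.219). Nearest to miR-214-3p were miR-99b-5p (0.294), miR-22-3p (0.353) and miR-203a-3p (0.50). Within the cluster the distance was 1.06 between both arms of miR-199a, 3.05 between miR-199a-3p and miR-214-3p and 4.10 between miR-199a-5p and miR-214-3p, so no member was the nearest form of another.

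**Figure D5:**
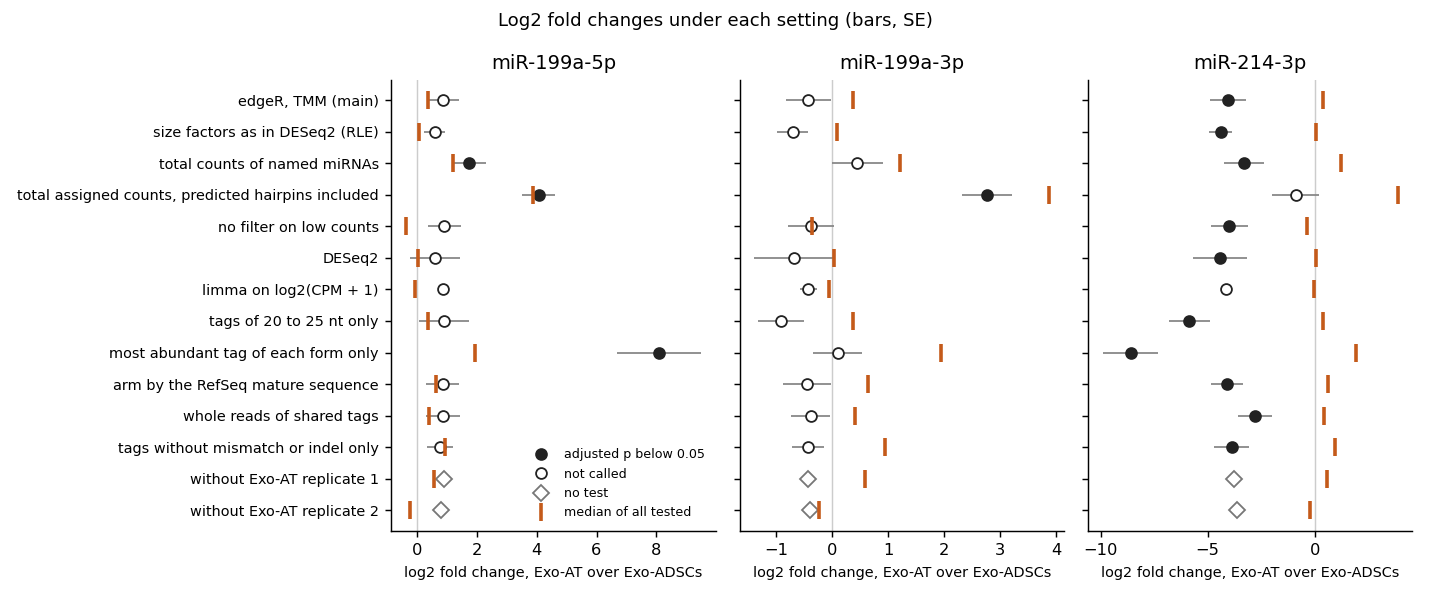
Log2 fold change, Exo-AT over Exo-ADSCs, of the 3 forms under each setting (points, bars for SE), with filled points where the adjusted p is below 0.05, open points where it is not, diamonds where 1 library per group allows no test, and a tick at the median of all tested forms. miR-214-3p is below 0 under every setting shown and nearest to 0 at -0.89 with all assigned counts, while miR-199a-3p changes sign with the scale. With the most abundant tag only, the points of miR-199a-5p and miR-214-3p rest on a group with 0 counts, so their size depends on the prior count and is no estimate.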

How the data were processed

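The deposited tag files hold whole-number counts per tag and hairpin, made by the authors from small RNA reads of 36 cycles with inserts of about 15 to 35 nt. Alignment with Novoalign 2.07.11 and the build rn6 come from the submitters' processing notes. How adaptors were trimmed and hairpins predicted is not given in the sources used here. No tag had fewer than 2 reads, and a tag on several hairpins had its reads divided among them. A table deposited by the authors gives normalized reads, treated as a score because no factor is named. The file of Exo-ADSCs replicate 1 is a summary by read-count class and was not used.

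Tags were summed to arms by the side of the hairpin's midpoint on which their own midpoint lay, after removing the 5 flanking bases that positions count (Python 3.11.15, pandas 2.3.3). Named miRNAs were tested with edgeR 4.0.16 in R 4.3.3 (quasi-likelihood, two-sided, TMM, minimum count 10, minimum total 15), with Benjamini-Hochberg adjustment over 183 forms and a threshold of 0.05. TMM factors were 1.39 and 1.08 for Exo-AT and 0.664 for Exo-ADSCs. Alternatives were other scalings, no filter, DESeq2 1.42.0, limma 3.58.1 (log2(CPM + 1)), other tag choices, and leaving out each Exo-AT library. Undivided reads and mismatch-free tags were added after the data were seen. The procedure was tested on counts simulated with a common dispersion for all libraries. That could not check the spread assumed for the Exo-ADSCs library. Shares have 95% Wilson intervals. The text names every form of both hairpins, the 3 most abundant tags per form and library, rno-mir-3120, the 3 nearest forms and the 4 most abundant of the mesenchymal list. Other tags named were chosen after their values were seen. The members and lists were chosen with earlier results of these data known.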

Additional observations from a re-analysis of the deposited data

Results flagged for a closer look

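A signal lay outside the named hairpins that the comparisons use. The hairpin predicted on chromosome 3, which holds the first 21 bases of miR-199a-3p, also had 5p tags of its own that were not assigned to rno-mir-199a. The start of that hairpin differs from miR-199a-5p by C10T. These tags had 8 counts in Exo-AT replicate 1 and 109 counts in Exo-AT replicate 2, against 11 counts in Exo-ADSCs replicate 2. This was 876 and 801 CPM of named counts in Exo-AT, against 113 CPM in Exo-ADSCs. Its own 3p tags, those not shared with miR-199a, had 6 and 24 counts in Exo-AT, against 8 in Exo-ADSCs. The values were not tested, because predicted hairpins were left out of the fit.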

How the results depend on the processing

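miR-199a-5p had a log2 fold change of 1.74 with total named counts, 4.07 with all assigned counts and 8.09 with the most abundant tag of each form only, each a call where the TMM fit (0.88) made none. The last value rests on 0 counts in Exo-ADSCs and depends on the prior count. miR-199a-3p turned to 0.45, 2.77 and 0.10 under these 3 settings, against -0.43 with TMM, and the value of 2.77 was a call in the other direction (adjusted p = 1.89e-08, edgeR). miR-214-3p lost its call with all assigned counts (-0.89) and with limma (-4.15), and kept it under the other tested settings. The cause was not tested. The median of all forms was 0.08 with DESeq2-type size factors, 1.21 with total named counts and 3.88 with all assigned counts. Without either Exo-AT replicate, a value with no test, miR-199a-5p was 0.79 to 0.91, miR-199a-3p -0.44 to -0.40 and miR-214-3p -3.79 to -3.62. The 5p share of miR-199a moved to 27.2% and 29.9% in Exo-AT, against 14.2% in Exo-ADSCs, with undivided reads. With limma 11 forms were higher and 15 lower, and with the most abundant tag 18 were lower, against 35 and 35. No paired analysis was possible because tag counts were used for 1 Exo-ADSCs library only, so the groups share a single replicate number. miR-214-5p had no count to test, and leaving out Exo-ADSCs replicate 2 would leave that group without tag counts. Exo-AT replicate 1, with 55 counts of the cluster, limits every share given for it.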
